A study of Mus musculus with 4 samples.

Results

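The stellate cell and fibrosis genes are 10 genes of the matrix-producing response of the liver: the collagens Col1a1, Col1a2, Col3a1 and Col4a1, the contractile actin Acta2, the receptor Pdgfrb, the cytokine Tgfb1, the crosslinking enzyme Lox, the matrix protease Mmp2 and the protease inhibitor Timp1. They were chosen by name, as all non-control probes of the array whose gene name was one of the 10. This gave 22 of 41037 probes and 10 of 26518 gene names. Liver RNA came from male C57BL/6J mice, bought at 8 weeks of age and made obese with a high-fat diet for 14 weeks (diet-induced obese mice, at least 40 g). They received 2 µL of porcine galanin-like peptide (GALP, a hypothalamic neuropeptide) or of saline into the nose once a day for 11 days. The paper names α-cyclodextrin in the saline that carried GALP and describes the control only as saline. RNA was pooled before labelling: 4 mice given GALP that lost more weight formed the greater weight loss pool, 4 that lost less formed the less weight loss pool, and 8 mice given saline formed the control pool. Each GALP pool met the control pool on 2 dual-colour Agilent arrays with the Cy5 and Cy3 dyes exchanged, which gave 4 arrays on 1 slide. Although the labels of the control channel also carry a weight loss group, the methods describe 1 control pool, and the control was taken as that pool on all arrays. Means are given ± SD over the GALP pools (n = 2), and the spread of the control mice enters no SD and no test. All groups carry the obesity and the diet, and no lean mice were analysed here.

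Hepatic stellate cells lie between hepatocytes and the sinusoids, where they store vitamin A at rest. When the liver is injured they can turn into myofibroblast-like cells, which express smooth muscle actin, answer to platelet-derived growth factor and transforming growth factor β (TGF-β), and lay down fibrillar collagen. Collagen is then crosslinked by lysyl oxidases, cut by matrix metalloproteinases and shielded from them by tissue inhibitors of metalloproteinases. In whole liver, fewer cells of a type and less RNA per cell cannot be told apart.

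Most members lay above the control in the liver of GALP-treated mice, but no member passed the tests across all probes. Timp1, Mmp2 and Col1a1 had the largest ratios. The Mmp2 probe was dim, and its mean log2 ratio fell from 0.73 to 0.09 under another background correction. With the brightest probe standing for each gene, 8 of the 10 members had a log2 ratio of GALP over control above 0 on all 4 arrays, against 9.92% of the 16320 genes with signal well above background in any channel. Of the members, 9 were above 0 in both pools, against 28.6% of these genes, and none was below 0 in both, against 30.2%. Among the 11397 genes with signal on every array, as these 9 have, the shares were 30.8% and 37.4%. The median log2 ratio over the members was 0.36, with 0.49 in the greater weight loss pool and 0.30 in the less weight loss pool, and the median over the 16320 genes was 0.01. Lox stood above background in 1 channel of 8 and carries no direction. Without it, the median over 9 members was 0.44.

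None of the 22 member probes was called by the rule of the study's methods, read strictly. In each pool the fold must exceed 1.5 or be below 0.75, with a scanner software p under 0.01 and the same direction on all 4 arrays. It called 0.0585% of all probes as higher and 0.132% as lower. With limma on the 2 pools, none of the 41037 probes had a Benjamini-Hochberg adjusted p under 0.05 (0.0%). This fit has 1 residual degree of freedom and missed even large changes on simulated data, so the lack of a call does not show that a member was level with the control. At an unadjusted p under 0.05, limma gave 2 member probes as higher, of Mmp2 and Pdgfrb, and none as lower, against 4.99% and 6.6% of all probes. Other limma fits over all probes called 106 probes with the pool as a random block and 95 after another background correction, and no member was among either. The block fit entered the dye swaps of a pool as separate arrays, with an estimated correlation of -0.389 between them, so its count rests on technical repeats. Among the 15713 probes with signal on every array limma called 1 (0.00636%), which was no member. When the software p was left out, Timp1 and Mmp2 met the fold and the direction as higher and no member as lower, against 0.375% and 0.877% of all probes. With that p needed on only 1 array of each pool, Timp1 was called as higher, against 0.129% of all probes. Within the greater weight loss pool alone, the rule called Timp1 (2 probes) and Col1a1 as higher, against 0.297% of all probes, and within the less weight loss pool it called no member, against 0.234%.

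**Figure D1:**
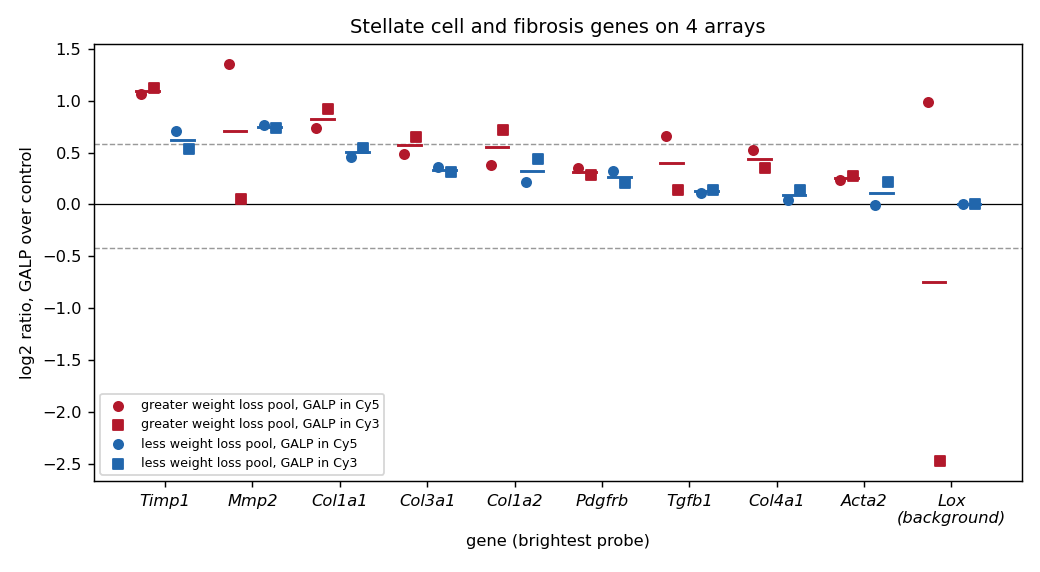
Log2 ratio of GALP over control (vertical axis) for the brightest probe of each of the 10 members (horizontal axis). Red points are the 2 arrays of the greater weight loss pool and blue points those of the less weight loss pool, circles have GALP in Cy5 and squares in Cy3, short lines are pool means, and dashed lines mark the folds of 1.5 and 0.75. The pool means of Timp1 and Mmp2 lie above the upper dashed line in both pools, and the points of Lox, at background, spread on both sides of 0.

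**Figure D2:**
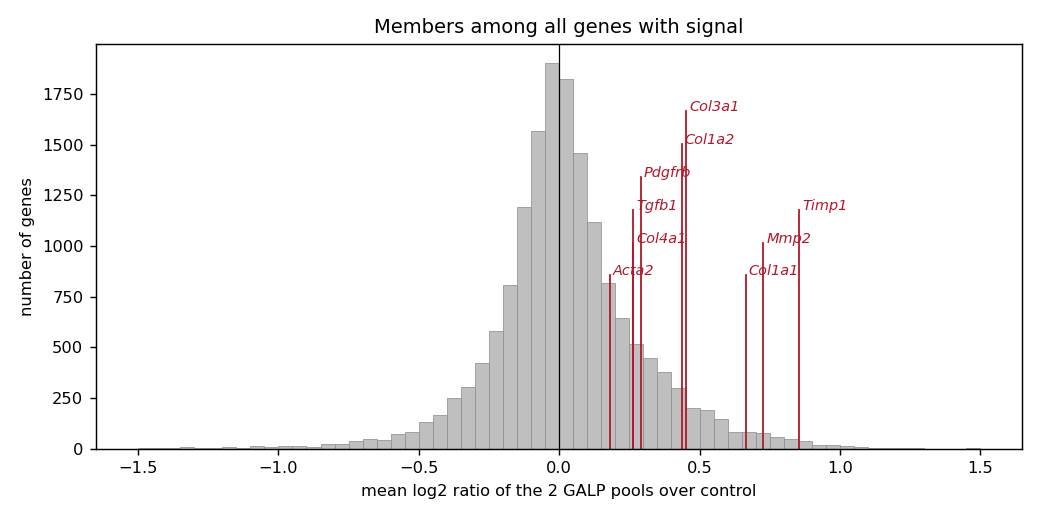
Number of genes (vertical axis) by mean log2 ratio of the 2 GALP pools over control (horizontal axis) for the genes with signal in any channel, in bins of equal width. Of the 16320 genes, 51 lie outside the plotted range. Red lines mark the 9 members with signal on every array, all to the right of 0, from Acta2 at 0.18 to Timp1 at 0.85.

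Timp1, the tissue inhibitor that binds matrix metalloproteinases, had the largest ratio of the members. Its brightest probe lies at chrX:20451675-20451733 (mm9). The second probe lies 1770 bases away at chrX:20449905-20449964 and is printed with it, since the gene was measured by both.
Timp1 A_52_P87713: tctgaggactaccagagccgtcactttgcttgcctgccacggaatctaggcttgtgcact
Timp1 A_51_P512384: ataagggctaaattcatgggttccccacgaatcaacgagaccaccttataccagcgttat
The log2 ratios of the brightest probe were 1.07 and 1.12 in the greater weight loss pool and 0.70 and 0.53 in the less weight loss pool. All 4 arrays were thus above 0, and the lower array of the greater weight loss pool was above the higher array of the other pool. The processed intensity on the GALP side was 1027 and 993 for the greater weight loss pool and 755 and 609 for the less weight loss pool, and on the control side it ran from 421 to 491 over the 4 arrays. Timp1 was 2.13-fold above the control in the greater weight loss pool and 1.53-fold in the less weight loss pool (mean log2 ratio 0.85 ± 0.33, limma adjusted p = 0.50). The software p was under 0.01 on 3 of 4 arrays, and the remaining array, of the less weight loss pool, had 0.0129. The second probe was dimmer and gave 0.79 and 1.49 in the greater weight loss pool and 0.28 and 0.16 in the other. On the GALP side it was above background on 3 of 4 arrays and on the control side on 1 of 4. In the less weight loss pool its control side was at background, and the GALP signal was 1.11-fold above the limit used for that side. The software p there was 0.56 and 0.77, so this probe shows no clear rise in that pool. Both probes were thus higher in the greater weight loss pool than in the less weight loss pool.

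Mmp2, a gelatinase that degrades basement membrane collagen, was the other member past the folds in both pools. Its log2 ratios were 1.35 and 0.06 in the greater weight loss pool and 0.77 and 0.73 in the less weight loss pool. The arrays of the greater weight loss pool differed by 1.30, so that pool's mean of 0.70 averages a high and a near-zero array, while the less weight loss pool gave nearly the same value on both arrays. The mean was 0.73 ± 0.03 (limma adjusted p = 0.374). The probe was dim, with a processed intensity of 45.1 to 132 on the GALP side and 26.5 to 79.2 on the control side, and was well above background on 4 of 4 arrays on the GALP side but on 2 of 4 on the control side. With normexp background correction and loess in place of the software's ratios, its mean was 0.09. Lox, the lysyl oxidase that crosslinks collagen, was well above background in no GALP channel and 1 control channel, so no fold is given for it.

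The fibrillar collagens Col1a1 and Col1a2, the 2 chains of type I collagen, and Col3a1, the chain of type III collagen, all lay above the control on all 4 arrays. The first 30 bases of their bright probes are shown, from chr11:94813075-94813134, chr6:4490619-4490678 and chr1:45405589-45405648 (mm9), since their values rest on these probes.
Col1a1 A_52_P525107: ttttcctttgcattcacctttcaaacttag
Col1a2 A_51_P182303: accaagaattccgtgtggaggttggccccg
Col3a1 A_51_P515605: ataagccaaactctctgaaaccccagcaaa
Col1a1 gave 0.73 and 0.92 in the greater weight loss pool and 0.46 and 0.54 in the less weight loss pool (0.66 ± 0.23, limma adjusted p = 0.476). This probe is printed in 10 spots on each array, and every spot kept had a ratio above 0. The SD between spots of 1 array ran from 0.0985 to 0.131, so each array's own mean is tightly set, but the pools are still only 2. The fold was 1.77 in the greater weight loss pool and 1.42 in the less weight loss pool. The 2 other Col1a1 probes were dim: A_51_P377094 gave -0.69, 1.06, 0.12 and 0.55, with no shared direction, and A_52_P658611 was at background in every channel.

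Col1a2 gave 0.38 and 0.72 in the greater weight loss pool and 0.22 and 0.43 in the less weight loss pool, with a mean of 0.44 ± 0.16 (limma adjusted p = 0.484). Col3a1 gave 0.49 and 0.65, and 0.36 and 0.31, with a mean of 0.45 ± 0.17 (limma adjusted p = 0.488). The 2 genes were bright, with control intensities between 1155 and 1767, and all of their arrays were above 0. The arrays of the pools overlapped for Col1a2 and did not for Col3a1. The other probes of these genes were above background in at most 1 channel, and they lie 24.3 to 27.2 kb from the bright ones.

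Col4a1, a chain of the type IV collagen of basement membranes, had smaller ratios. Its brightest probe gave 0.52 and 0.35 in the greater weight loss pool and 0.05 and 0.14 in the less weight loss pool (0.26 ± 0.24, limma adjusted p = 0.702). A second bright probe 837 bases away gave 0.77 and 0.34, and 0.41 and 0.04 (0.39 ± 0.23). The remaining Col4a1 probe, 46.0 kb away, was above background in 1 GALP and 1 control channel. Both bright probes were above 0 on all 4 arrays, and both were higher in the greater weight loss pool.

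Pdgfrb, the receptor through which platelet-derived growth factor reaches stellate cells and pericytes, had the most even ratios among the bright members. It gave 0.35 and 0.28 in the greater weight loss pool and 0.32 and 0.21 in the less weight loss pool, with a mean of 0.29 ± 0.04 (limma adjusted p = 0.374). The 4 arrays lay within 0.14 of each other, and the fold was 1.22.

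Tgfb1, the cytokine that drives collagen synthesis in stellate cells, gave 0.66 and 0.14 in the greater weight loss pool and 0.11 and 0.14 in the less weight loss pool (0.26 ± 0.19, limma adjusted p = 0.674). The high value was that of 1 array. On that array the 9 spots kept ran from 0.55 to 0.88, and on the other 3 arrays spots fell on both sides of 0.

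Acta2, the smooth muscle actin of activated stellate cells and of vessel walls, was the lowest member with signal. Its 10-spot probe gave 0.23 and 0.28 in the greater weight loss pool and -0.01 and 0.22 in the less weight loss pool (0.18 ± 0.11, limma adjusted p = 0.599). A second bright probe gave 0.20 and 0.12 in the greater weight loss pool, but -0.35 and -0.08 in the less weight loss pool. The probes of Acta2 thus differed in direction in the less weight loss pool. The other 3 Acta2 probes were above background in at most 1 channel on each side.

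**Figure D3:**
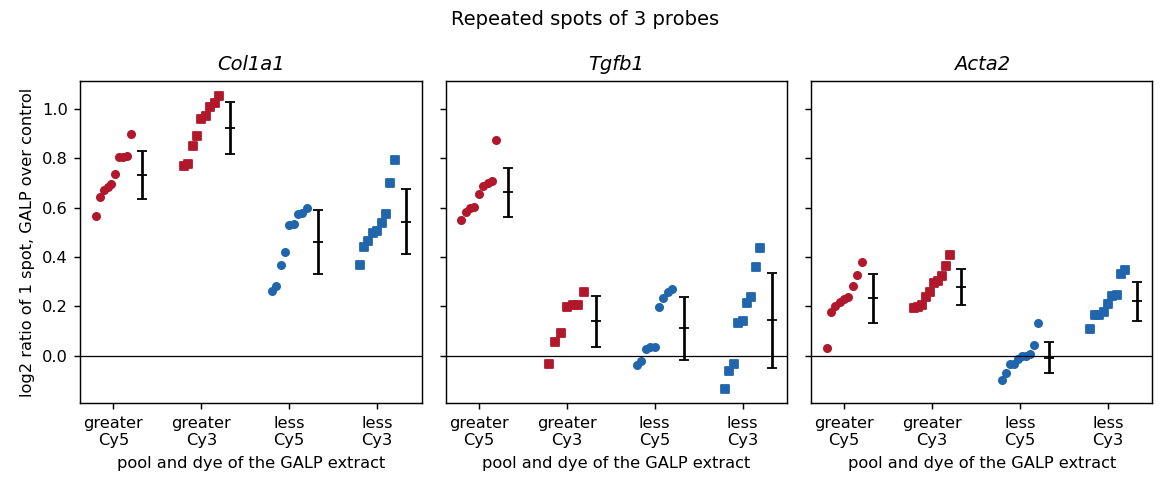
Log2 ratio of GALP over control for each kept spot (vertical axis) of the 3 member probes printed 10 times per array, by pool and dye of the GALP extract (horizontal axis). Red marks the greater weight loss pool and blue the less weight loss pool, and black bars are the mean ± SD over spots. All Col1a1 spots lie above 0, the Tgfb1 spots stand apart on 1 array only, and the Acta2 spots of the less weight loss pool with GALP in Cy5 lie around 0.

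The greater weight loss pool was above the less weight loss pool for 8 of the 10 members, all but Mmp2 and Lox, against 52.5% of all genes with any signal. The median difference of log2 ratios, greater minus less, was 0.23 over the members and 0.01 over all these genes. It ran from 0.05 for Pdgfrb to 0.47 for Timp1 among the 8. Each group is 1 pool of 4 mice, so this difference has no test. The pools also differed in markers of skeletal muscle (6 of 6 with signal), whose summed intensity was 328 and 398 in the less weight loss pool, 2225 and 2987 in the greater weight loss pool and 1887 to 2282 in the control. Their part in the members' difference was not tested.

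The ratios of the members shrank under normexp background correction with within-array loess, which adds an offset of 50 to the signals. The median over the members became 0.18. Timp1 was then 0.58, Col3a1 0.44, Col1a1 0.35, Col1a2 0.33, Col4a1 0.21, Pdgfrb 0.14, Acta2 0.11, Mmp2 0.09 and Tgfb1 0.06. All 9 members with signal kept a mean above 0, and 8 were again above 0 on all 4 arrays.

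Promoters from 250 bases before to 50 bases after the start, from the RefSeq table (GRCm38.p6), were examined for 6 of the 10 members. These were Timp1, Col1a2, Col3a1, Col4a1, Tgfb1 and Acta2. The promoters of the other members were not examined, so their absence here does not show that the table lacks them. Those of Timp1 (chrX:20869916-20870215), Col1a2 (chr6:4505368-4505667) and Col3a1 (chr1:45311288-45311587), all on the plus strand, are shown because these genes lay above the control together. Capitals mark exact matches to the motif strings searched on both strands. These were the CCAAT box (CCAAT), the GC box (GGGCGG) and the AP-1 site (TGANTCA, with N any base). The others were the SMAD element (CAGAC), the TATA box (TATAAA) and the CArG box (CCWWWWWWGG, with W either A or T).
Timp1: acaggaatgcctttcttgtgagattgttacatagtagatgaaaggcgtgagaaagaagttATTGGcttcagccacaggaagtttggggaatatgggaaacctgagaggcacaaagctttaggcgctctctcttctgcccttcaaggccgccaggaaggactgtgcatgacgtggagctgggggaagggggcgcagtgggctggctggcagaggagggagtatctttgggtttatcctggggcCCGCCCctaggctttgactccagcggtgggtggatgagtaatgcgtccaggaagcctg
Col1a2: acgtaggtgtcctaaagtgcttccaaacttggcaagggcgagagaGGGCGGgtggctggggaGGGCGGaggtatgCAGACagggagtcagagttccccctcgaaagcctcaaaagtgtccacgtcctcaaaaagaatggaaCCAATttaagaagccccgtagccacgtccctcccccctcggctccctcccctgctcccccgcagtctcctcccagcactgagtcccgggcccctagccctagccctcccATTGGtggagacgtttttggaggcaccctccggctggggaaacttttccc
Col3a1: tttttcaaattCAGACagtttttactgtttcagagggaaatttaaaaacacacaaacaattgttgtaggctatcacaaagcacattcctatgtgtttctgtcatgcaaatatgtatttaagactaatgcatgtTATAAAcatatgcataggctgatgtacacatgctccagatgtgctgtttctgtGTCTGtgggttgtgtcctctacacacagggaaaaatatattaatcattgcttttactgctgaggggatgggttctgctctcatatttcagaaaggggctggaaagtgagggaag
The GC box was in 4 of the 6 member promoters (Timp1, Col1a2, Col4a1 and Tgfb1) and in 35.7% of all 32851 promoters in the table. The CCAAT box was in 3 of 6 (Timp1, Col1a2 and Col4a1) and in 37.4% of all. The SMAD element was in 3 of 6 (Col1a2, Col3a1 and Acta2) and in 49.6% of all. The TATAAA string was in 1 of 6 (Col3a1, at position -117 from the start) and in 13.6%. Exact AP-1 and CArG strings were in none of the 6, and in 7.81% and 1.63% of all. Sequences that differ from a string by a base were not counted, so a missing string does not show a missing element. These letters in the windows are a description, and the 6 members examined shared no searched string throughout.

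Other genes of the same pathways were described from lists of further collagens, collagen processing, matrix glycoproteins, proteases and inhibitors, TGF-β and PDGF signalling, contractile proteins and quiescent stellate cell markers. Among 11 other collagens with signal on every array, 6 were above 0 and 1 below 0 on all 4 arrays, with a median of 0.24. The highest was Col6a2, a chain of the microfibrillar type VI collagen, at 0.49 ± 0.29, but its arrays differed by dye. With GALP in Cy5 it gave 0.14 in the greater and -0.09 in the less weight loss pool, and with GALP in Cy3 1.26 and 0.66. The lowest was Col5a3, a minor fibrillar chain, which gave -0.57 and -0.58 in the greater and -0.57 and -0.63 in the less weight loss pool, and which the rule called as lower (limma adjusted p = 0.374). Among the 11 genes with signal for collagen processing and crosslinking, 6 were above 0 and 1 below 0 on all 4 arrays (median 0.22), from P4ha1, a prolyl hydroxylase subunit, at -0.22 to Serpinh1, the collagen chaperone, at 0.43. Among 10 glycoproteins and proteoglycans, 7 were above 0 and 1 below 0 on all arrays (median 0.22), from Fbln2 at -0.13 to Nid1, a basement membrane linker, at 0.48. For comparison, 12.8% of all 11397 genes with signal on every array were above 0 on all 4 arrays and 14.5% below.

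The proteases and inhibitors were mixed, with a median of 0.05 over 7 genes, of which 2 were above 0 on all 4 arrays. Timp3, an inhibitor held in the matrix, gave 0.55 and 0.68 in the greater and 0.58 and 0.76 in the less weight loss pool and was called as higher by the rule (0.64 ± 0.04, limma adjusted p = 0.374). Timp3 thus stood with Timp1 above the control on all 4 arrays. Timp2 was also above 0 on all 4 arrays, but its mean was small (0.07 ± 0.06). Timp4 was above background in 1 GALP and 1 control channel and carries no direction.

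Of 13 TGF-β pathway genes with signal, 7 were above 0 and 1 below 0 on all 4 arrays (median 0.15), from Tgfb3 at -0.19 to Ltbp4, a latent TGF-β binding protein, at 0.25. PDGF ligands and receptors had a median of 0.00 over 4 genes, from the ligand Pdgfc at -0.42 to the receptor Pdgfra at 0.25. None was above 0 on all arrays and 1, Pdgfc, was below. The contractile and cytoskeletal genes had a median of 0.00 over 8 genes, from Cald1, a caldesmon, at -0.37 to Tagln, a smooth muscle protein, at 0.27. None of them was above 0 on all arrays and 1 was below. The quiescent stellate cell markers had a median of 0.15 over 11 genes, with 4 above 0 and 0 below 0 on all arrays, from Ngfr at -0.17 to Cygb, the stellate cell cytoglobin, at 0.35. Lrat, the enzyme that stores vitamin A, was above background in every channel, while Gfap and Hand2 were at background in all of them. In these lists limma gave no adjusted p under 0.05.

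**Figure D4:**
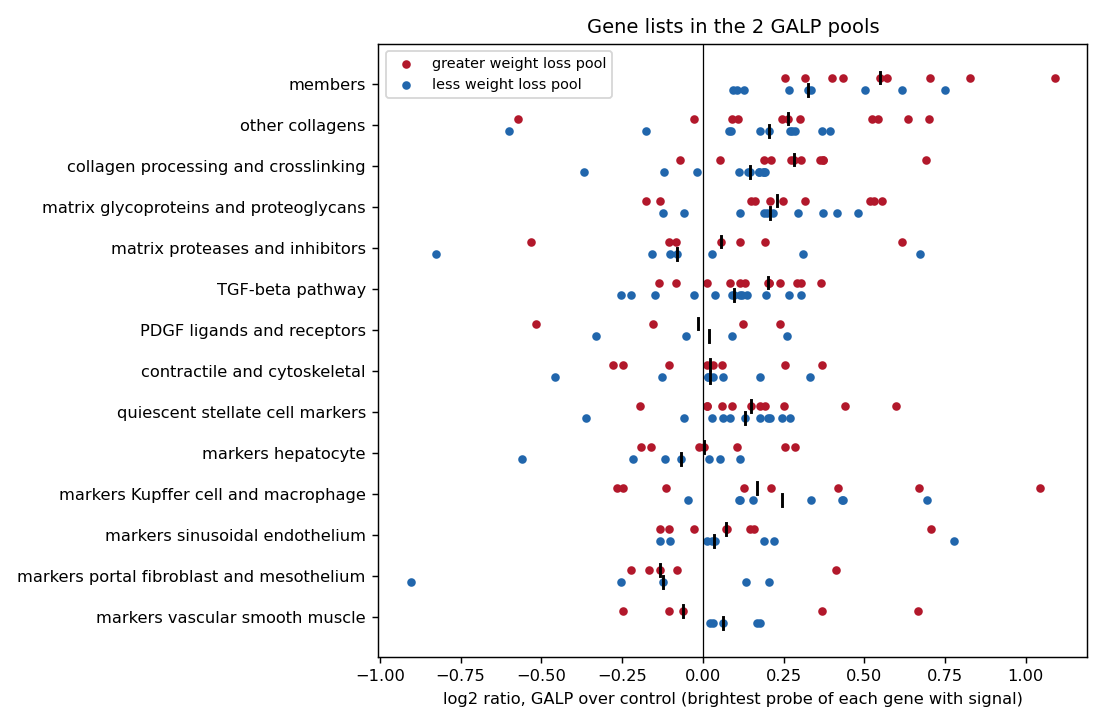
Log2 ratio of GALP over control (horizontal axis) for genes with signal on every array in each list (vertical axis), in the greater (red) and less (blue) weight loss pool, with the list median as a black bar. The medians of the members lie at 0.55 and 0.33, and those of the contractile list lie near 0.

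Markers of other cell types were read beside the members, and their part in the members' ratios was not tested. Of 8 macrophage and Kupffer cell markers, all with signal, 4 were above 0 on all 4 arrays (median 0.21), and their summed intensity was 25968 to 31770 on the GALP side and 23125 to 25856 on the control side. Hepatocyte markers (7 of 7 with signal) had a median of 0.01 and sinusoidal endothelial markers (8 of 8) of 0.07. Portal fibroblast and mesothelial markers (5 of 8 with signal) had a median of -0.13, with summed intensities of 948 to 1175 in GALP and 951 to 1146 in control channels, and Upk3b and Wt1 were at background. Vascular smooth muscle markers (5 of 6) had a median of 0.05. Bile duct (4 of 6), adipose (3 of 6) and blood markers (3 of 5) had medians of -0.12, -0.29 and -0.15.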

How the data were processed

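Liver RNA of GALP-treated and saline-treated obese mice was measured on 4 dual-colour arrays as 2 GALP pools against 1 control pool, with a dye swap. Precision is limited by the number of pools, since the 4 arrays are dye swaps of 2 GALP pools against 1 control pool. The members and gene lists were chosen with earlier results of these data known.

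Per the file headers, the software was Feature Extraction 12.0.3.1, and it gave the processed intensity of each channel after background subtraction and LOWESS dye normalization (the submitters' processing notes name 11.0.1.1). The deposited log10 ratio is Cy5 over Cy3, set to 0 where both signals were at background, and its deposited p-value comes from the error model of the software for 1 array. In the deposited series table these log10 ratios are turned to GALP over control, and differ at spots that the software had set to 0. Its array medians, on the log2 scale, ran from -0.14 to 0.01, and the scanner files' medians were 0.

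Ratios were expressed as log2 of GALP over control. Outlier-marked spots were dropped, and the remaining spots of a probe were averaged, then the 2 arrays of a pool. Of 43379 spots per array, 232 to 319 were marked and 0 saturated, and 40.5% to 46.7% were well above background. The brightest probe stood for a gene. The rule of the methods needed p under 0.01 on all 4 arrays and, in each pool, a fold above 1.5 or below 0.75. limma 3.58.1 (R 4.3.3) tested the 2 pool ratios against 0 with 1 residual degree of freedom and Benjamini-Hochberg adjustment over 41037 probes. Python 3.11.15, numpy 2.4.6, pandas 2.3.3 and matplotlib 3.10.9 were used.

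The genes named are the members, list genes past the folds in both pools, and the highest and lowest gene of each list with signal on every array. A gene that this rule names is not reported here. Marker genes at background and others named beside these were chosen after their values were seen. Probe positions are on mm9 as the files give them. The alternatives were normexp (offset 50) with loess, centring, the series table, outlier-marked spots kept, each dye orientation, each array or pool left out, other p and fold rules, other probe rules and other limma fits. Centring on probes with signal and the restriction to genes with signal on every array were added after the data were seen.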

Additional observations from a re-analysis of the deposited data

Results flagged for a closer look

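In the contrasts of GALP against control, some genes had both arrays of 1 pool above 0 and both arrays of the other pool below 0. These differences between pools were not tested, since each is 1 pool. The second bright probe of Acta2 (A_51_P450957) was 0.16 in the greater and -0.21 in the less weight loss pool, a difference of 0.37. Among the genes named from the lists or highest or lowest in them, the difference, greater minus less, was -0.55 for Spp1 (A_51_P358765) and 0.37 for Ngfr (A_52_P236448). It was 0.63 for the adipose marker Adipoq (A_51_P458451), 2.25 for the muscle creatine kinase gene Ckm (A_51_P380807) and 3.13 for the muscle myosin light chain gene Myl1 (A_51_P416858). The median over the skeletal muscle markers differed by 2.95 between the pools.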

How the results depend on the processing

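The median over the members was above 0 under all 16 alternatives, and it moved by more than the spread between pools under 1, normexp with loess (0.18). The count of members below 0 in both pools, 0 as reported, was 1 with normexp with loess and 1 without the less weight loss pool, and it was Lox, at background, each time. The count of members above 0 on all arrays was 8 or 9, and the median difference between pools stayed between 0.14 and 0.33. The count of member probes called, 0 as reported, was 1 on the arrays with GALP in Cy5 alone, 1 with p under 0.01 on at least 1 array of each pool and 2 with no p rule. Leaving out 1 array or pool gave 0 to 3, with 1 without the second array of the less weight loss pool and 3 without that pool. The count of genes called in the other stellate and matrix lists, 2 as reported, was 0 with normexp with loess, 1 on the arrays with GALP in Cy5 alone, 1 with a lower limit of 1/1.5, and 1 to 3 when 1 array or pool was left out. Over all probes, limma called 0 as reported, 1 among probes with signal and 95 with normexp with loess. With the pool as a random block, where dye swaps entered as separate arrays, it called 106. The deposited series table and centring on all probes left the members with signal at the same ratios by construction, so they are no independent check. Each ratio compares GALP with control on the same array, and the dye swaps of a pool were averaged. Animals could not be paired, because RNA was pooled and the pools are of different mice. Signal over background limits Mmp2, Lox and the dim probes of Col1a1, Timp1 and Acta2.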

Other observations

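Some macrophage and endothelial markers had ratios as large as those of the members. They were picked out after their values were seen. Marco, a scavenger receptor of macrophages, gave 1.07 and 1.02 in the greater and 0.81 and 0.58 in the less weight loss pool (0.87 ± 0.25, limma adjusted p = 0.436) and was called as higher by the rule. Cd68, a lysosomal protein of macrophages, had a mean of 0.55 ± 0.17 and Adgre1, the F4/80 antigen, of 0.43 ± 0.01, while the other 5 markers of that list ran from -0.16 for Timd4 to 0.27 for Csf1r, with Cd5l at 0.14 and Clec4f and Vsig4 at or below 0. Lyve1, a hyaluronan receptor of sinusoidal and lymphatic endothelium, gave 0.86 and 0.56, and 0.95 and 0.61 (0.74 ± 0.05, limma adjusted p = 0.374), and was called as higher. The other 7 endothelial markers had means between -0.12 and 0.19.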
